A study of Mus musculus with 74 samples.

Results

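Tdpoz1, Tdpoz2, Tdpoz3, Tdpoz4, Tdpoz5, Tcstv1, Tcstv3 and Zfp352 are 8 mouse genes that were followed here through donor cells, cloned embryos and fertilized zygotes by the H3K9me3 peaks over their bodies, promoters and flanks. They were chosen by name from the GENCODE annotation of mm10, in which they are 8 of 21938 protein-coding genes. The study profiled H3K9me3, the trimethylation of lysine 9 of histone H3, with ULI-NChIP-seq, a native chromatin immunoprecipitation for very few cells, to follow this mark through preimplantation development after somatic cell nuclear transfer (SCNT). In SCNT the nucleus of a somatic cell is injected into an enucleated oocyte, which is then activated chemically. The labels give 74 libraries, 41 precipitated and 33 input, in 20 groups, and each precipitated group yielded 1 deposited peak list.

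Cumulus cells (CC), the somatic cells around the oocyte, were the nuclear donors. CC and recipient oocytes came from superovulated B6D2F1 females, the young adult offspring of C57BL/6j females and DBA/2 males. SCNT embryos, labelled NT, were collected 6 and 14 h post activation (6 hpa and 14 hpa), as 2-cell embryos (late 2-cell by the methods), as 4-cell and 8-cell embryos, as morulae, and as blastocysts whose ICM (inner cell mass) and TE (trophectoderm, the outer layer) were separated by micromanipulation. Embryos were activated in strontium medium with cytochalasin B, and no gene was altered in any of these groups. The fertilized group, zygotes at pronuclear stage 5 (PN5), came from C57BL/6j parents and, by the methods, from an earlier publication. Embryo type, strain and study therefore cannot be told apart wherever PN5 is set beside SCNT embryos. Replicates were pooled before peaks were called, so every value below is 1 number per list, without a replicate error, and no test between stages was possible.

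H3K9me3 is a mark of heterochromatin, laid down by the SETDB1 and SUV39H methyltransferases and bound by HP1 proteins, and it covers many repeated and lineage-restricted genes in somatic cells. The 8 genes belong to the group transcribed briefly when the mouse embryo starts its own transcription around the 2-cell stage, and in the rare embryonic stem cells that resemble that stage. Tdpoz genes encode proteins with a TRAF (MATH) domain and a POZ (BTB) domain, related to the ubiquitin ligase adaptor Spop. Tcstv genes encode small 2-cell-stage proteins, of which Tcstv1 and Tcstv3 have been linked to telomere lengthening in embryonic stem cells, and Zfp352 encodes a C2H2 zinc finger protein. Peak lists hold no expression, so the label of 2-cell genes was not checked against transcripts here.

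The 8 genes lie at 3 loci. The 5 Tdpoz genes lie on chromosome 3, at chr3:93651542-93652686 (Tdpoz2, minus strand), chr3:93669333-93676310 (Tdpoz1, minus), chr3:93796398-93797510 (Tdpoz4, plus), chr3:93826020-93827117 (Tdpoz3, plus) and chr3:93960292-93961314 (Tdpoz5, minus). Tcstv1 (chr13:119893388-119894785, minus) and Tcstv3 (chr13:120316878-120318178, plus) lie on chromosome 13, and Zfp352 (chr4:90218820-90225702, plus) lies alone on chromosome 4. They are short genes, with a median length of 1223 bp against 17425 bp for all protein-coding genes. Tdpoz1, Tcstv3 and Zfp352 have 2 annotated exons and the other members have 1. All 8 are poor in CpG, with an observed-to-expected CpG ratio over the gene body between 0.0292 in Tcstv3 and 0.1998 in Tdpoz5.

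The Tdpoz genes are copies of one another, with 72.4 to 88.2% identity between coding sequences over 10 pairs, and the copies differed in their peaks, so the first 120 coding bases are shown to let the copies be told apart. Tdpoz3 is the reference, and capitals in the other 4 mark bases that differ from it at the same position (GRCm38.p6, 5′ to 3′ on the coding strand).
Tdpoz3, chr3:93826020-93826139, plus: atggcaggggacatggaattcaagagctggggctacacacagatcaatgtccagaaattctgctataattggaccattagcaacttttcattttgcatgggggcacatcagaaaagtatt
Tdpoz1, chr3:93671356-93671475, minus: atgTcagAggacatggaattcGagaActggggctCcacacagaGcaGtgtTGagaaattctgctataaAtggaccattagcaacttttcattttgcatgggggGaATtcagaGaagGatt
Tdpoz2, chr3:93652544-93652663, minus: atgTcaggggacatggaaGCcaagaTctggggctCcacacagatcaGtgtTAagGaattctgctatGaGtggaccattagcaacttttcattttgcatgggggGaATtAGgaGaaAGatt
Tdpoz4, chr3:93796398-93796517, plus: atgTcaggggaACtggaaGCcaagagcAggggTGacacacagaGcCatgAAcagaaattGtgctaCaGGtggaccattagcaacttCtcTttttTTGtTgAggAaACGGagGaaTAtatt
Tdpoz5, chr3:93961195-93961314, minus: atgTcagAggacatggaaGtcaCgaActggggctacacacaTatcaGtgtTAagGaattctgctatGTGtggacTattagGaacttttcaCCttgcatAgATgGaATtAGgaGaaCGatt
Within these 120 bases Tdpoz1 differed from Tdpoz3 at 15 positions, Tdpoz2 at 19, Tdpoz5 at 28 and Tdpoz4 at 31. Tcstv1 and Tcstv3 are closer still, with 93.6% identity over the coding sequence. The letters bear on whether a read can be placed. Of the stretches of 150 bases that start within each gene, the share found once on the 21 chromosomes was 100% for Zfp352, 94.3% for Tdpoz4, 92.3% for Tdpoz2, 90.4% for Tdpoz1, 85.3% for Tcstv1, 84.2% for Tcstv3 and 70.0% for Tdpoz3. It was 7.62% for Tdpoz5, so a single read of 150 bases inside it could seldom be assigned to 1 place. The part of this in its coverage was not tested. Its coding identity with the other 4 Tdpoz members was 72.4 to 81.6%, and where else its stretches occur was not examined. The SCNT libraries were read as pairs, while this share counts single stretches.

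With a gene called covered when peaks overlay at least 50% of its body, the covered members were 4 of the 5 Tdpoz copies, and which copies were covered differed between stages. Tdpoz3, Tdpoz4 and Tdpoz5 were covered in donor cells and at 6 hpa, Tdpoz3 and Tdpoz4 also at 14 hpa, Tdpoz3 was covered to the 8-cell stage, and Tdpoz2 was covered only in the ICM and TE lists. Tdpoz1 and Tcstv3 had no peak over the gene body in any of the 10 lists, and none of the 8 genes had one in PN5. Of the 80 pairs of a member and a list, 20 had a peak over the gene body, where the background over all pairs of a protein-coding gene and a list was 43.6%, and 13 reached 50% coverage, where it was 2.40%. Pairs of the same gene are not separate observations, and of these 13 pairs 6 were Tdpoz3 and 3 were Tdpoz4. The members are short, with a median of 1223 bp against 17425 bp, and a short body is touched less easily and filled more easily. No gene body background given here or below was matched for length, and the part of length in these shares was not tested.

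**Figure D1:**
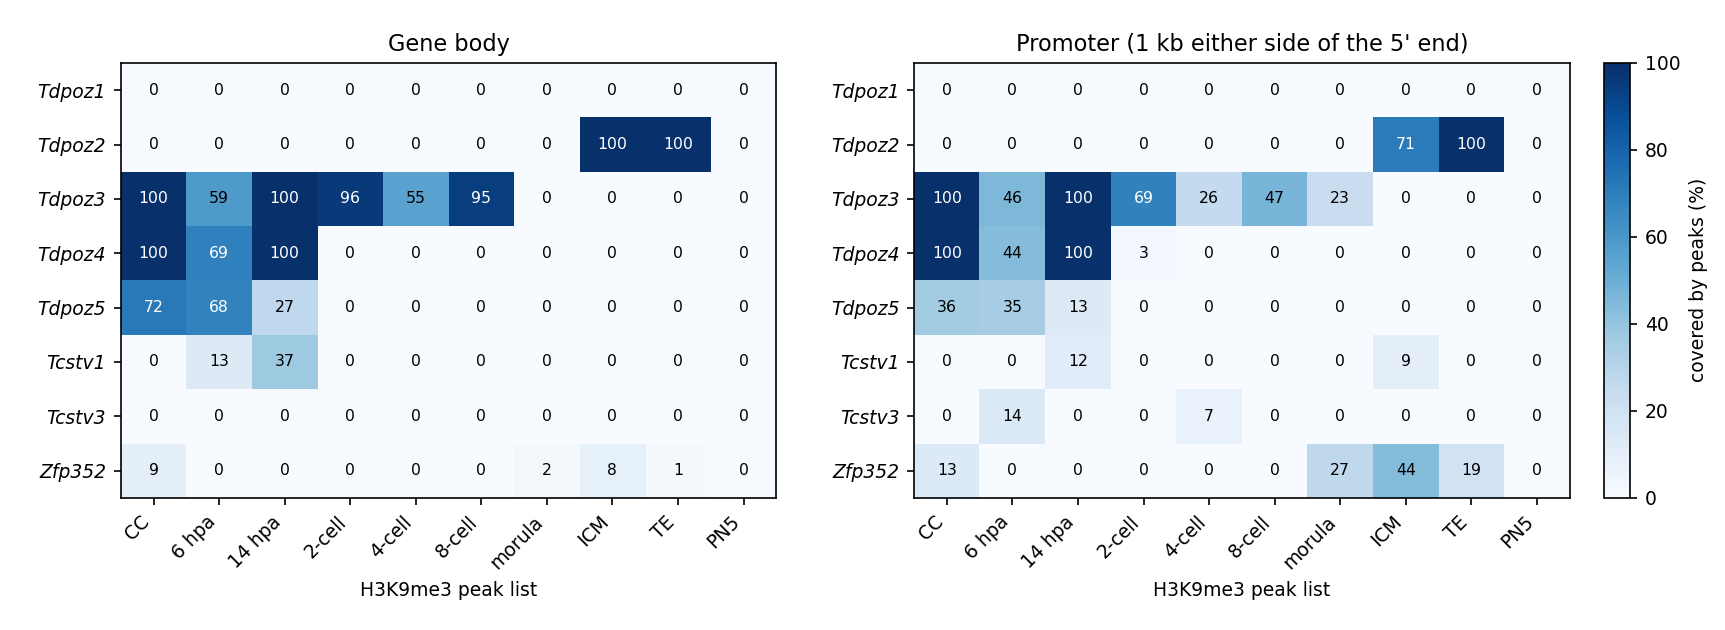
Percent of the gene body (left) and of the promoter, 1 kb on either side of the annotated 5′ end (right), covered by H3K9me3 peaks, for 8 genes (rows) in 10 pooled peak lists (columns), with each value printed in its cell. Tdpoz3, Tdpoz4 and Tdpoz5 are dark on the left side of the gene body panel, Tdpoz2 is at 100% only in ICM and TE, and the PN5 column is 0 throughout.

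Tdpoz3 was the member with the most lists. Its body was covered to 100% in CC, 58.9% in the 6 hpa list, 100% at 14 hpa, 95.9% in the 2-cell list, 55.5% in the 4-cell list and 94.5% in the 8-cell list, and to 0% in morula, ICM, TE and PN5. The peaks behind these values were unlike in width, 19151 bp in CC and 16078 bp at 14 hpa against 986 bp at 6 hpa and 1358 to 2240 bp from the 2-cell to the 8-cell stage. The widest peaks were thus those in CC and at 14 hpa, and the 4-cell peak had 609 of its bases in the gene and the rest downstream of it. Fold, the enrichment over background that the peak caller computed, was low in these lists. It was 2.35 in the 2-cell list, 2.80 in the 4-cell list and 2.62 in the 8-cell list, at the 1.85, 20.4 and 17.9 percentiles among the peaks of the same list. In CC the fold was 2.58 (35.0 percentile), at 6 hpa 2.99 (71.5 percentile) and at 14 hpa 3.08 (74.9 percentile). The mark over Tdpoz3 at cleavage stages was thus called from peaks in the lower part of each list.

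Tdpoz4 was covered to 100% in CC, 68.8% in the 6 hpa list and 100% at 14 hpa, and to 0% in each of the 7 other lists. Its peaks were 5358 bp wide in CC (fold 3.16), 766 bp at 6 hpa (2.68) and 3874 bp at 14 hpa (2.44). Peaks came close to the gene without reaching it in 4 later lists. The nearest one lay downstream at a distance of 0.65 kb in the 2-cell list, 0.669 kb in morula, 0.584 kb in ICM and 0.408 kb in TE. In PN5 the nearest peak was 15.9 kb away.

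Tdpoz5 was covered to 71.8% in CC, 68.3% in the 6 hpa list and 26.7% at 14 hpa, and to 0% in the other 7 lists. Its CC peak had a fold of 2.54 and a −log10 q of 2.07, and it was lost when every list was trimmed to the same covered length, which took the CC value from 71.8 to 0%. At 6 hpa the peak was 699 bp wide with a fold of 3.43 (89.8 percentile). From the 2-cell stage to TE no peak lay within 28.5 kb of Tdpoz5, and 62.6% of the 150-base stretches in its 20 kb upstream and 44.8% of those downstream were found once.

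Tdpoz2 was covered in the late lists instead. It was at 0% in CC, at 6 and 14 hpa, from the 2-cell to the morula list and in PN5, and at 100% in ICM and TE. The ICM peak, chr3:93645277-93653105, was 7829 bp wide with a fold of 4.37 (93.6 percentile), and the TE peak, chr3:93644986-93655532, was 10547 bp wide with a fold of 4.08 (90.1 percentile). In morula a peak of 3091 bp with a fold of 4.17 ended 2.26 kb downstream of the gene, and in PN5 a peak of 704 bp with a fold of 3.76 ended 4.37 kb downstream. In CC a peak of 1155 bp with a fold of 2.45 lay closer, 0.178 kb downstream. The gene was therefore under a peak in both blastocyst lists and near one in others, and 92.3% of its 150-base stretches were found once.

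How many genes had the same pattern was counted with a criterion written from the values of Tdpoz2 itself, so the count is a description. Of 4980 protein-coding genes without a peak over the body from CC through morula, 4 were covered to at least 50% in both ICM and TE, a background of 0.0803%, and Tdpoz2 was one of them. The other 3, which were named after their values were seen, were Cypt12, Gm16381 and Gm21860, each at 0% in PN5 as well.

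Tdpoz1, the copy with the coding sequence nearest to that of Tdpoz3 (88.2% identity), had no peak over its 6978 bp in any list. Neither had Tcstv3, over 1301 bp. A gene body without a peak in all 10 lists was found for 16.4% of protein-coding genes, and 2 of 8 members were among them. The nearest peak to Tdpoz1 lay between 1.07 kb (CC) and 23.1 kb (8-cell) from the gene, and that to Tcstv3 between 0.692 kb (6 hpa) and 85.0 kb (PN5).

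Tcstv1 had small peaks in 2 lists, with 12.9% of the gene covered at 6 hpa and 37.1% at 14 hpa, and 0% in the other 8 lists. The peaks were 180 and 519 bp wide with folds of 2.65 and 2.26, and both had a −log10 q under 2, at 1.97 and 1.58. Neither remained when peaks under a −log10 q of 2 were removed. Both Tcstv genes were thus without a covered gene body in any of the 10 lists.

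Zfp352 was covered over its body to 8.85% in CC, 1.67% in morula, 8.21% in ICM and 0.915% in TE, and to 0% in the 6 other lists, at 6 and 14 hpa, from the 2-cell to the 8-cell stage and in PN5. These low shares of a 6883 bp gene came from small peaks at its 5′ end in morula, ICM and TE. In CC they came mostly from a peak of 556 bp within the gene, beside 53 bases under a peak at the 5′ end, and with peaks under a −log10 q of 2 removed the CC value was 0.77%. The peaks at the 5′ end were 268 bp wide in CC (fold 2.65, 44.3 percentile), 542 bp in morula (4.22, 94.1 percentile), 876 bp in ICM (4.22, 91.8 percentile) and 388 bp in TE (4.39, 94.3 percentile). The fold of the CC peak was thus near the middle of its list, and the folds from morula on were at or above the 91.8 percentile of theirs.

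Since those peaks sit on the start of Zfp352, the 250 bases before the start in RefSeq are shown for Zfp352 and, beside them, for Tdpoz1, which had no peak there in any list. The RefSeq start of Tdpoz1 lies inside the GENCODE gene, so that the last 27 of its bases shown belong to the first GENCODE exon. The RefSeq windows of GRCm38.p6 held 4 of the 8 members (Tdpoz1, Tdpoz4, Tdpoz5 and Zfp352). Capitals mark the longest run of letters that the windows of Zfp352 and Tdpoz1 share.
Zfp352, chr4:90218570-90218819, plus: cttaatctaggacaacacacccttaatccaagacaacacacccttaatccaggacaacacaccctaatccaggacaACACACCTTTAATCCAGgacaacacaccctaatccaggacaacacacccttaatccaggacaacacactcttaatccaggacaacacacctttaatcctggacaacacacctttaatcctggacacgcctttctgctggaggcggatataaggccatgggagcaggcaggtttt
Tdpoz1, chr3:93676284-93676533, minus: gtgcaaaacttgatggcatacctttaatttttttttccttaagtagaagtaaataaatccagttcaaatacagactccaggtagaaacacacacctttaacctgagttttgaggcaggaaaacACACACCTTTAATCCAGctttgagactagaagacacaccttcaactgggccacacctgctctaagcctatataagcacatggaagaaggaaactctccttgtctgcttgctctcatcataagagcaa
The shared run of 17 bases, ACACACCTTTAATCCAG, was found on either strand in 5 of 32851 RefSeq windows of 300 bases (0.0152%). The Zfp352 window repeats a short unit. The 8 letters ACAACACA were picked as the most repeated ones in this window, where they occurred 9 times. No other window held them as often, a rank that this choice favored. At least 1 copy on either strand was found in 1.34% of windows. Both windows also hold ATATAAG, 29 bases before the RefSeq start of Zfp352 and 59 bases before that of Tdpoz1, as do 2.52% of windows on either strand. The 250 bases before Zfp352 were covered to 86.0% in CC and to 100% in morula, ICM and TE, and to 0% in the other 6 lists. Those before Tdpoz1 were at 0% in all 10 lists. For this pair of genes, the shared run, picked as their longest, thus lay in windows with unlike coverage. Of the stretches used above to judge read placement, 100% in the Zfp352 promoter and 55.7% in the Tdpoz1 promoter were found once. The part of this in the 0% before Tdpoz1 was not tested, and neither was a link between letters and coverage.

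The core letters GATTNAATC, which are part of the site bound by the 2-cell transcription factor Dux and read the same on both strands, occurred within 1 kb of the 5′ end in 1.58% of protein-coding genes. Among the members they occurred for Tcstv1, 138 bases before the start, and for Zfp352, 751 bases after it, and in no window around an annotated Tdpoz start. The annotated starts of Tdpoz2 to Tdpoz5 align inside the second exon of Tdpoz1, so the windows searched for these genes may not hold their promoters.

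Promoters were taken as 1 kb on either side of the annotated 5′ end. The Tdpoz3 promoter reached 50% in 3 lists (CC, 14 hpa and 2-cell), while its gene body did so in 6. The Tdpoz2 promoter reached 50% in ICM and TE, as its gene body did. Tdpoz2 to Tdpoz5 are 1023 to 1145 bp long, so the downstream side of their promoter windows lies over most of the gene body. Their promoter values therefore rest in part on the same bases and peaks, and are not a separate result. The Tdpoz3 promoter was covered to 100% in CC, 45.6% in the 6 hpa list, 100% at 14 hpa, 68.6% in the 2-cell list, 25.6% in the 4-cell list, 47.0% in the 8-cell list and 22.7% in morula, and to 0% in ICM, TE and PN5. The Tdpoz4 promoter was at 100% in CC, 43.7% in the 6 hpa list, 99.5% at 14 hpa and 2.60% in the 2-cell list, and at 0% in the 6 other lists. Both were lower at 6 hpa than in CC and at 14 hpa.

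Peaks covered 70.96% of the Tdpoz2 promoter in ICM and 100% in TE, with 0% in the 8 other lists. That of Tdpoz5 was at 35.6% in CC, 34.9% in the 6 hpa list and 12.6% at 14 hpa, and that of Zfp352 at 13.4% in CC, 27.1% in morula, 43.8% in ICM and 19.4% in TE. Zfp352 and Tdpoz2 were thus the members with promoter peaks in both blastocyst lists. Tcstv1 had 0.450% at 6 hpa, 11.6% at 14 hpa and 9.45% in ICM, and Tcstv3 had 13.8% at 6 hpa and 6.80% in the 4-cell list. The Tdpoz1 promoter was at 0% in every list, with 55.7% of its 150-base stretches found once.

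For the Tdpoz genes with 1 exon the annotated start is a limit of the promoter values. In an alignment with Tdpoz1, the annotated 5′ ends of Tdpoz3, Tdpoz4 and Tdpoz5 fell 94 bases and that of Tdpoz2 fell 71 bases inside the second exon of Tdpoz1, whose first exon starts 4741 bases before the second. The identity over the aligned bases was 72.2% for Tdpoz4 and up to 86.7% for Tdpoz3. Promoter windows of these 4 genes therefore cover bases that align with the end of the Tdpoz1 intron and with its second exon.

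Set against all genes, 3 of 8 gene bodies were covered in CC, where the background over protein-coding genes was 4.76%. The count was again 3 at 6 hpa (background 3.83%) and 2 at 14 hpa (3.40%). It was 1, Tdpoz3 alone, at the 2-cell (1.98%), 4-cell (2.26%) and 8-cell stages (2.23%), and 0 in morula (1.68%). In ICM (1.08%) and TE (0.843%) it was 1, this time Tdpoz2, and in PN5 it was 0 (1.95%). Any 1 gene of 8 is already a larger share than each of these backgrounds, so a count of 1 says little about the members as a set, and no test was run. The backgrounds were also not matched for gene length. The median coverage over the members was 4.42% in CC, 6.44% in the 6 hpa list and 13.3% at 14 hpa, and 0% in the other lists. Over all protein-coding genes it was 0% in 8 lists, 1.28% at 6 hpa and 0.942% in PN5. A gene body without any peak in PN5 was found for 45.7% of protein-coding genes and for 8 of 8 members, which are shorter than most genes.

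Promoter counts were lower. They were 2 of 8 in CC (background 5.26%), 0 at 6 hpa (8.56%), 2 at 14 hpa (4.74%) and 1 in the 2-cell list (3.10%), with Tdpoz3 and Tdpoz4 making up the CC and 14 hpa counts and Tdpoz3 the 2-cell count. They were 0 at the 4-cell (2.78%) and 8-cell stages (2.45%) and in morula (1.87%), 1 in ICM (1.34%) and in TE (1.17%), both Tdpoz2, and 0 in PN5 (3.58%). At 6 hpa the Tdpoz3 and Tdpoz4 promoters lay just under 50%, at 45.6 and 43.7%, and the count at a limit of 25% was 3.

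Of the 1044 protein-coding gene bodies covered in CC, 36.7% were also covered at 6 hpa, 51.3% at 14 hpa, 18.7% in the 2-cell list and 15.6% in the 8-cell list. The members covered in CC were Tdpoz3, Tdpoz4 and Tdpoz5, and the counts also covered were 3 of 3 at 6 hpa, 2 of 3 at 14 hpa, and 1 of 3 in the lists from 2-cell to 8-cell. From morula on it was 0 of 3, where 19.2% of all genes covered in CC were also covered in morula, 14.2% in ICM and 10.4% in TE.

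The flanks show what lay around the genes. The 20 kb upstream of Tdpoz3 were covered to 96.3% in CC, 41.8% in the 6 hpa list and 36.2% at 14 hpa, and to between 0 and 5.93% in the 7 other lists. Its 20 kb downstream were covered to 87.3% in CC, 57.8% in the 6 hpa list, 86.2% at 14 hpa and 67.9 to 80.3% from the 2-cell stage to ICM and TE, and to 37.5% in PN5. The downstream side of Tdpoz3 was thus covered to 37.5% or more in every list, and the upstream side was covered in the first 3.

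Upstream of Tdpoz4 the coverage of 20 kb was 95.3% in CC, 35.2% in the 6 hpa list, 59.3% at 14 hpa, and between 0 and 16.3% afterwards and in PN5. Downstream it was 91.3, 44.0 and 43.9% in the same 3 lists and at most 8.20% in the others. The flanks of Tdpoz5 were covered in CC and in the 6 and 14 hpa lists, upstream to 22.7, 25.9 and 25.5% and downstream to 37.9, 20.6 and 9.06%. In the later lists they were at 0%, apart from 0.78% upstream in PN5.

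Downstream of Tdpoz2 the coverage was 31.3% in ICM, 32.8% in TE and 15.5% in morula, and at most 6.84% in the 7 other lists. Tdpoz1, which lies upstream of it on the same strand, had flanks with peaks in CC (32.4% upstream, 12.6% downstream), at 6 hpa (16.2 and 17.8%), at 14 hpa (12.0 and 6.88%), in ICM (4.61 and 24.0%) and in TE (13.7 and 33.3%), and at 0% on both sides in the other 5 lists. The downstream flank of Tdpoz1 contains Tdpoz2, so its ICM and TE values include the peak over that gene. With flanks of 10 kb, Tdpoz1 had 0% on both sides in TE, and 0% upstream and 2.11% downstream in ICM.

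**Figure D2:**
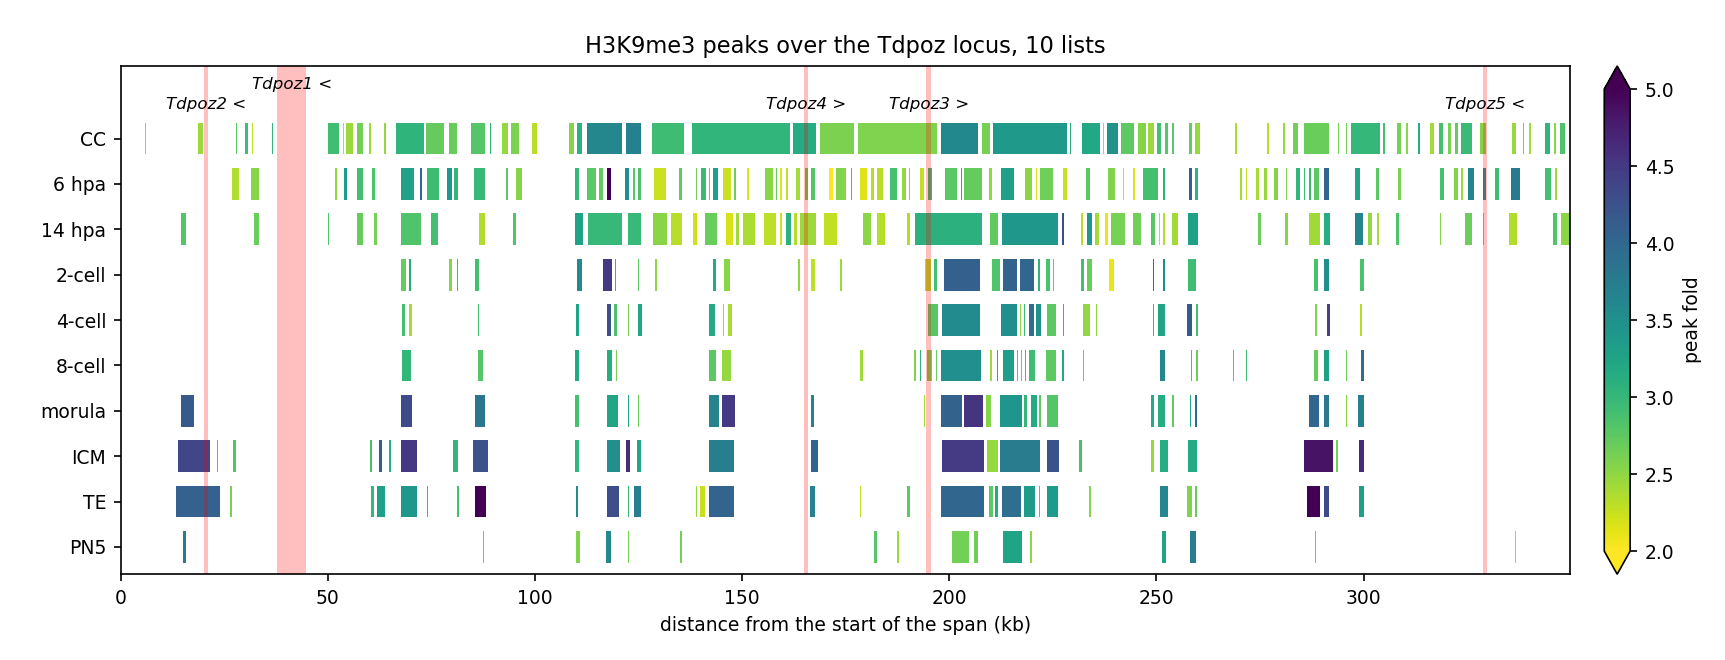
Position of H3K9me3 peaks (bars) in 10 lists (rows) along the Tdpoz span, in kb from its start, 20 kb before Tdpoz2. Bar color gives peak fold, red bands mark the 5 genes with their strand as > or <, CC holds an almost unbroken block over Tdpoz4 and Tdpoz3, and Tdpoz2 lies under bars only in ICM and TE.

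The Tdpoz span, from 20 kb before the first to 20 kb after the last copy (chr3:93631542-93981314, 350 kb), was covered to 53.0% in CC, while chromosome 3 as a whole was covered to 6.87%. The span stood at 28.5% at 6 hpa, 35.2% at 14 hpa, 12.2% in the 2-cell list, 9.99% in the 4-cell list, 10.3% in the 8-cell list and 13.9% in morula. It was higher again in ICM (20.4%) and TE (19.3%), and it was 5.01% in PN5, where the chromosome stood at 4.14%. In the 9 other lists the chromosome lay between 3.62 and 6.95%. Coverage of the locus thus exceeded that of its chromosome in each list, most in CC and least in PN5.

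Within the span, the 70.7 kb from 20 kb before Tdpoz4 to 20 kb after Tdpoz3 were covered to 92.6% in CC, 45.3% in the 6 hpa list and 61.5% at 14 hpa. The rest of the span was covered to 42.9, 24.2 and 28.5%. From the 2-cell stage to TE the central part lay between 22.1 and 29.6% and the rest between 6.52 and 18.1%, and in PN5 they were at 12.2 and 3.19%. The central part was more covered than the rest in all 10 lists. It was bounded by Tdpoz4 and Tdpoz3, both covered to 100% in CC and at 14 hpa, so higher values there were favored by the choice. It also holds the longest of the stretches, given next, that were covered in every list.

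Several stretches in the span were covered in every list, PN5 included. There were 13, adding up to 7865 bases or 2.25% of the span, against 0.594% of chromosome 3. The longest, chr3:93844567-93847043, was 2477 bp and began 17450 bp after the end of Tdpoz3. In it 90.8% of bases were repeat-masked, 96.6% of 150-base stretches were found once, and no gene was annotated. The peaks over it had folds between 3.25 (PN5) and 4.05 (2-cell). None of the 13 stretches touched a Tdpoz gene, which follows from the absence of any peak over a Tdpoz gene in PN5.

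The Tcstv span (chr13:119873388-120338178) was covered to 41.5% in CC, 28.8% in the 6 hpa list, 39.7% at 14 hpa, 21.8% in the 2-cell list, 31.9% in the 4-cell list, 24.97% in the 8-cell list, 24.2% in morula, 17.4% in ICM and 13.3% in TE, with 3.78% in PN5. Chromosome 13 lay between 5.06% in PN5 and 10.1% in CC. The span was thus above its chromosome in the 9 lists of CC and SCNT embryos and below it in PN5, with both members themselves nearly free of peaks. In this span 52.4% of the 150-base stretches were found once, against 70.1% in the Tdpoz span and 96.0% around Zfp352, and the part of this in the values was not tested.

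Around Tcstv1 the 20 kb upstream were covered to 9.92% in CC, 7.68% in the 6 hpa list and 24.8% at 14 hpa, and the 20 kb downstream to 24.4, 16.6 and 38.9%. In the other lists neither side exceeded 2.80%. Around Tcstv3 the upstream side reached 13.6% in the 4-cell list and 9.26% at 6 hpa, and the downstream side was at 0% in 8 lists and at 1.20% in ICM and 1.11% in TE. The downstream side of Tcstv3 was thus the emptier one.

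**Figure D3:**
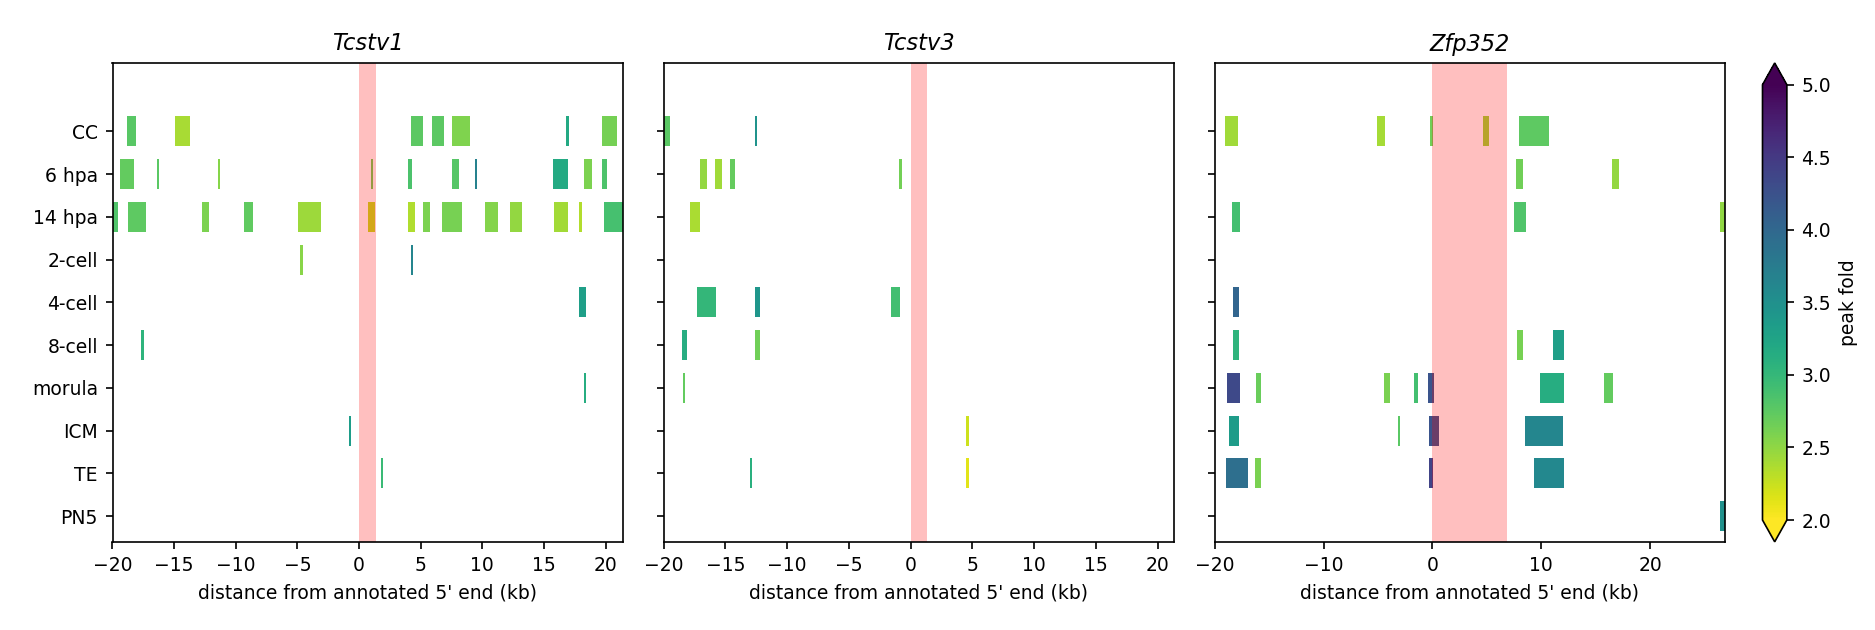
Position of H3K9me3 peaks (bars) in 10 lists (rows) around Tcstv1, Tcstv3 and Zfp352, in kb from the annotated 5′ end with transcription to the right. Bar color gives peak fold, red bands mark the genes, and bars sit on the start of Zfp352 in CC, morula, ICM and TE.

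The Zfp352 span (chr4:90198820-90245702, the gene with 20 kb on either side) was covered to 11.7% in CC, 2.53% in the 6 hpa list, 4.71% at 14 hpa, 0% in the 2-cell list, 1.34% in the 4-cell list and 4.65% in the 8-cell list. It was at 12.9% in morula, 11.9% in ICM and 11.8% in TE, against 0.951% in PN5. Chromosome 4 was covered to 10.9% in CC, 6.50% in the 2-cell list, 8.46% in morula and 5.69% in PN5. The 2-cell list held no peak in the 46.9 kb around Zfp352. Upstream the coverage reached 15.1% in morula and 13.9% in TE, and downstream it reached 17.3% in ICM and 14.7% in morula.

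**Figure D4:**
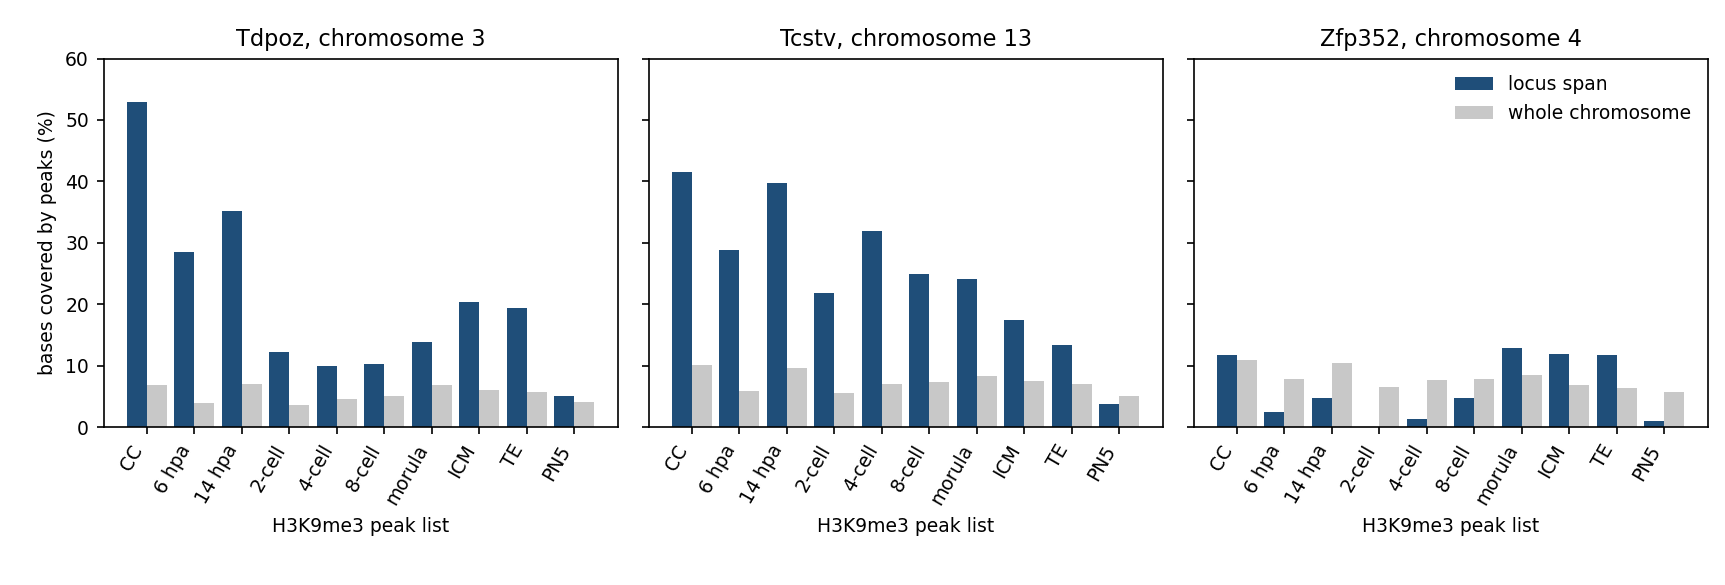
Percent of assembled bases covered by H3K9me3 peaks in the span of each locus (dark bars) and in its whole chromosome (gray bars), for 10 lists. The Tdpoz span stands at 53.0% in CC, 9.99% in the 4-cell list and 20.4% in ICM, the Tcstv span lies below its chromosome only in PN5, and the Zfp352 span is at 0% in the 2-cell list.

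Across all 21 peaks that touched a member, fold lay between 2.26 and 4.39 with a median of 2.68, while the median fold of all peaks of a list lay between 2.70 and 3.09. Peaks over Tdpoz2 in the blastocyst and over the start of Zfp352 from morula on made up the upper end of this range, and those over Tcstv1 at 14 hpa and over Tdpoz3 in the 2-cell list were the lowest, at 2.26 and 2.35. The lists held between 120195 and 200342 peaks and covered between 134 Mb (PN5) and 255 Mb (CC), a difference that goes with the values above and whose part in them was judged only by trimming the lists to equal length. The read depth of single libraries was not in these lists.

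Other genes within the spans were counted by the same limit. Of 16 other genes in the Tdpoz span, 7 were covered to at least 50% in CC, 10 in the 6 hpa list and 8 at 14 hpa, 0 from the 2-cell stage to ICM and in PN5, and 2 in TE. The background over protein-coding genes was 4.76, 3.83 and 3.40% in the first 3 lists, but it is not a like measure. Most of the 16 are annotated as unprocessed pseudogenes, several much shorter than the members, and short features are filled more easily. No background was computed for such features. Covered in at least 1 list were 14 of them, namely Gm18433 (a symbol given to 2 genes), Gm37596, Gm38086, Gm5852, Gm5773, Gm37430, Gm9113, Gm9116, Gm37185, Gm37104, Gm37807, Gm37481 and Gm9121. Gm5773 was the closest to the limit in the SCNT embryos, with 48.7 to 57.9% from the 4-cell list to TE.

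In the Tcstv span, 18 of 22 other genes were covered in at least 1 list. They were Gm37619, Gm21761, Gm21181, B020031M17Rik, Gm20784, Gm36161, Gm21370, Gm36079, Gm24798, Gm31544, Gm20767, Gm20769, Gm21818, Gm20763, Gm21762, Gm21731, AF067061 and Gm20900. The count was 10 in CC, 10 in the 6 hpa list, 11 at 14 hpa, 4 in the 2-cell list, 7 at the 4-cell and 8-cell stages, 3 in morula and 2 in ICM, TE and PN5. These 22 mix protein-coding genes with processed pseudogenes, a long noncoding RNA gene and small nuclear RNA genes, so the protein-coding background is no like measure here either. No other gene of these spans bore a Tdpoz or Tcstv symbol.

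Beside the members, 18 other genes of the 2-cell group were counted. Among them, the Dux, Zscan4 and Usp17l genes and Gm16513 are ones whose H3K9me3 in SCNT embryos the paper describes. A high count in the early lists was thus favored by the choice, and related copies were counted separately. Of the 18, 13 were covered in CC, 8 in the 6 hpa list, 9 at 14 hpa, 2 at the 2-cell, 8-cell and morula stages, and 1 in the 4-cell list and in ICM, TE and PN5. The background over protein-coding genes was 4.76% in CC, 3.83% in the 6 hpa list and 3.40% at 14 hpa. Median coverage of the 18 genes in CC was 81.8%, against 4.42% for the 8 members, a contrast that the choice of genes favored. Duxf3, which encodes the factor Dux, was covered in all 10 lists, and Zscan4a to Zscan4f were covered to between 70.5 and 100% in CC and to at most 1.65% in the 2-cell list. Among 8 genes that act on the 2-cell programme (Dppa2, Dppa4, Trim28, Setdb1, Chaf1a, Chaf1b, Kdm1a and Zmym2) none was covered in any list, and the highest value was 24.1% for Chaf1a in PN5. The background per list lay between 0.843% (TE) and 4.76% (CC), so no covered gene among 8 says little.

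The protein-coding genes outside the loci with the gene body values most like those of the members were taken from 2209 genes covered to at least 50% in at least 1 list, by the mean absolute difference over the 10 lists. For the mean of the 5 Tdpoz genes they were Pcdhga5, Pcdhga4 and Pcdhga1, overlapping genes of the clustered protocadherins, at 4.62, 4.69 and 4.73 percentage points. The mean of Tcstv1 and Tcstv3 had as its nearest genes Olfr938, Tas2r139 and Gm8797, at 4.33, 4.35 and 4.85 points, and Zfp352 had Hist2h2ab, Vmn1r127 and Olfr1465, at 5.49, 5.61 and 5.80 points. The last 6 of these 9 genes were each covered in a single list, the 14 hpa list for the first 3 and the CC list for the others, so likeness there rested mainly on shared values of 0%. Zfp352 itself reached at most 8.85% (CC) and the Tcstv mean at most 18.6% (14 hpa). The 50% limit therefore left out genes with low values in every list, and these 6 are not the most alike of all genes.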

How the data were processed

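H3K9me3 was measured in 41 precipitated and 33 input libraries. Per the methods and labels, the authors trimmed reads with cutadapt (version 1.16), aligned them to mm10 with BWA mem, merged replicates with SAMtools, removed duplicates and drew equal read numbers with Picard, and called broad peaks with MACS2 over input. Other versions and the peak threshold are not given in the sources used here. In each deposited list, fold is a ratio over background and −log10 q is that of the authors' peak caller, both averaged over the broad peak. Mapping quality filters are not given either, so how reads with several places were counted is not known here.

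Peaks on 21 chromosomes were merged within a list. Coverage is the percent of the bases of a gene body (GENCODE M21), a promoter (within 1 kb of the 5′ end) or a 20 kb flank that lie under merged peaks, and at least 50% counted as covered. The deposited peaks are the only measurement, so a region without a peak may still carry the mark below the threshold. Exact occurrences of each 150-base stretch were counted on both strands of GRCm38.p6. Python 3.11.15, NumPy 2.4.6, Numba 0.67.0, Biopython 1.88 (alignments) and Matplotlib 3.10.9 were used. Interval and sequence code was tested on simulated data. Groups followed the labels, and promoter windows came from RefSeq (GRCm38.p6).

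The 8 genes and the comparison lists were chosen with earlier results of these data known. Named genes were the members, genes of their spans covered to at least 50% in at least 1 list, 18 other 2-cell genes, 8 regulators, and the 3 most alike genes per locus. No test was run, since each group has 1 pooled list. Alternatives were a −log10 q of at least 2, lists trimmed to 134 Mb, limits of 25 and 75%, promoters of 2 kb, exons only and flanks of 10 kb.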

Additional observations from a re-analysis of the deposited data

How the results depend on the processing

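Counts of covered members were recomputed under each alternative. Restricting peaks to a −log10 q of at least 2, trimming lists to equal covered length and counting exons only left each of the 10 gene body counts within 1.5 times its value, and the first 2 did the same for the promoter counts. Within that range, the gene body count in CC fell from 3 to 2 with trimmed lists and also at a limit of 75%. The promoter count in CC rose from 2 to 3 at a limit of 25%. Other limits moved some counts. At 25%, the gene body count at 14 hpa was 4, and promoter counts were 3 at 6 hpa, 1 in the 4-cell list, 1 in the 8-cell list, 1 in morula and 2 in ICM. At 75%, gene body counts were 0 at 6 hpa and 0 in the 4-cell list, and promoter counts were 0 in the 2-cell list and 0 in ICM. With promoters of 2 kb the 2-cell promoter count was 0. Of 640 single coverage values under an alternative, 592 moved by less than 10 percentage points and 48 by more. Many were 0 from the start, since only 20 of the 80 gene body values had a peak. Stricter peaks, trimmed lists and exons only could not move a value of 0, so the count of 592 is no measure of stability. Those that reached 0 included Tdpoz5 and the Zfp352 promoter in CC with trimmed lists and Tcstv1 at 14 hpa with either stricter peak set. No paired analysis was possible because each group has 1 list made from merged replicates, which also leaves none to omit. Depth of single libraries is not in these lists and was not used here, and sequence that occurs more than once in the genome limits Tdpoz5 most.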
